A study of Mus musculus with 12 samples.

Results

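The enzymes of glycolysis, pyruvate oxidation and the citrate cycle were followed in perihematomal brain tissue after intracerebral hemorrhage (ICH), with and without Fabp4 in microglia. They were chosen by gene symbol, 41 symbols of the 21956 genes in the count table, and all 41 were counted. They fall into 5 groups by role: 12 genes of immune or hypoxic tissue (the isozymes Hk2, Hk3, Pfkl, Aldoa, Eno1, Ldha, Pdk1 and Pdk3, the regulators Pfkfb3 and Pfkfb4, the lactate exporter Slc16a3 and the itaconate enzyme Acod1), 7 isozymes typical of neural tissue (Hk1, Pfkm, Pfkp, Aldoc, Eno2, Ldhb and Pdk2), 6 glycolytic enzymes with no alternative isozyme in the set (Gpi1, Tpi1, Gapdh, Pgk1, Pgam1 and Pkm), 4 subunits of the pyruvate dehydrogenase complex (Pdha1, Pdhb, Dlat and Dld) and 12 enzymes of the citrate cycle (Cs, Idh2, Idh3a, Idh3b, Idh3g, Ogdh, Dlst, Suclg1, Sucla2, Fh1, Mdh1 and Mdh2). The group names are labels and not exclusive, and Aldoa and Eno1 of the first group were also abundant in sham tissue. Aldoa appears under 2 Ensembl identifiers, of which ENSMUSG00000030695 carried nearly all of its counts and was used. After the removal of genes with low counts, all 41 were tested between ICH and sham in either genotype and between genotypes after ICH, and 40 were tested between genotypes in sham, where Acod1 was too low.

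The 12 RNA-seq libraries came from 12 mice. There were 3 each of Sham-Fabp4fl/fl, Sham-Fabp4CKO, ICH-Fabp4fl/fl and ICH-Fabp4CKO. All mice carried floxed Fabp4 alleles, and Fabp4CKO mice also carried a tamoxifen-inducible Cre driven by the microglial gene Tmem119. ICH was induced with collagenase in the right striatum, and the ICH groups were sampled at 48 h. Each library is bulk tissue from around the hematoma, so microglia contribute only part of its RNA, and the age and sex of the sequenced mice are not given in the sources used here. Fabp4, a fatty acid chaperone, had 46, 63 and 24 counts in ICH-Fabp4fl/fl, 5, 3 and 10 in ICH-Fabp4CKO, 2, 1 and 2 in Sham-Fabp4fl/fl and 0 in each Sham-Fabp4CKO library.

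Total estimated counts ranged from 15650830 to 22406222 per library, and the 41 genes together took 1.3% to 1.67% of them. Mitochondrially encoded genes took 16.3% of the counts in ICH-Fabp4fl/fl mouse 1, beside a range of 7.90% to 11.9% elsewhere. ICH-Fabp4CKO mouse 1 had 1 count of Y-linked genes, and the remaining mice 1302 to 2251. ICH-Fabp4CKO was thus the only group with a mouse nearly without Y-linked transcripts. The part of this in the comparisons that use the group was not tested. The summed level of 8 striatal projection neuron markers was 1428, 1645 and 4426 CPM in the Sham-Fabp4fl/fl mice and 2984 to 5241 CPM in the Sham-Fabp4CKO mice. CPM is the count scaled to library size, with TMM factors over all 12 libraries, SE is the standard error, and "called" means a Benjamini-Hochberg adjusted p under 0.05 over all genes tested with edgeR's quasi-likelihood test.

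Glycolysis splits glucose into pyruvate, which is either reduced to lactate by lactate dehydrogenase and exported, or passed by the pyruvate dehydrogenase complex into the mitochondrial citrate cycle. Several steps have more than one enzyme, and neurons, glia and leukocytes use different members of these isozyme families. Activated myeloid cells and hypoxic cells are known to raise glycolytic isozymes and to slow or reroute the citrate cycle, and macrophages use Acod1 to turn cis-aconitate into itaconate.

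ICH was accompanied by a split within these pathways in both genotypes. Hk2, Hk3, Slc16a3, Pfkfb4 and Acod1 rose in both, as did Idh2, while Mdh1, Idh3b, Fh1, Dlat and Pdhb fell in both. In Fabp4fl/fl mice 9 of the 41 genes were higher after ICH and 8 were lower, against 26.2% of all genes higher and 19.3% lower. In Fabp4CKO mice 7 were higher and 6 were lower, against 24.5% and 11.1% of all genes. The calls came to 41.5% and 31.7% of the members, against 45.6% and 35.6% of all genes, so that the set as a whole was called about as often as the table. The median log2 fold change over the 41 genes was -0.072 in Fabp4fl/fl and -0.17 in Fabp4CKO, beside 0.019 and 0.014 over all genes. At an unadjusted p under 0.05 there were 22 members in each genotype, against 55.2% and 52.4% of all genes. Sham and ICH libraries did not overlap for 26 members in each genotype. In Fabp4fl/fl 13 of these were higher and 13 lower, against 34.4% and 27.4% of all genes, and in Fabp4CKO 8 and 18, against 33.2% and 28.9%. In bulk tissue, fewer cells of a type and less RNA per cell cannot be told apart, and nor can more cells and more RNA per cell.

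The genes of immune or hypoxic tissue held nearly all of the increases. Of the 12, 8 were called higher in Fabp4fl/fl and 6 in Fabp4CKO, beside 26.2% and 24.5% of all genes. None of the 12 was called lower in either. Their median log2 fold change was 0.87 in Fabp4fl/fl and 1.05 in Fabp4CKO, also with Acod1 set to the lower bound given with its values. Hk2, Hk3, Slc16a3, Pfkfb4 and Acod1 were called in both genotypes, Ldha, Eno1 and Pfkfb3 only in the Fabp4fl/fl comparison, and Pdk1 only in the Fabp4CKO comparison, and the interaction tests given further on did not pass for any of these 4. The remaining Pfkl, Aldoa and Pdk3 were not called in either genotype.

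**Figure D1:**
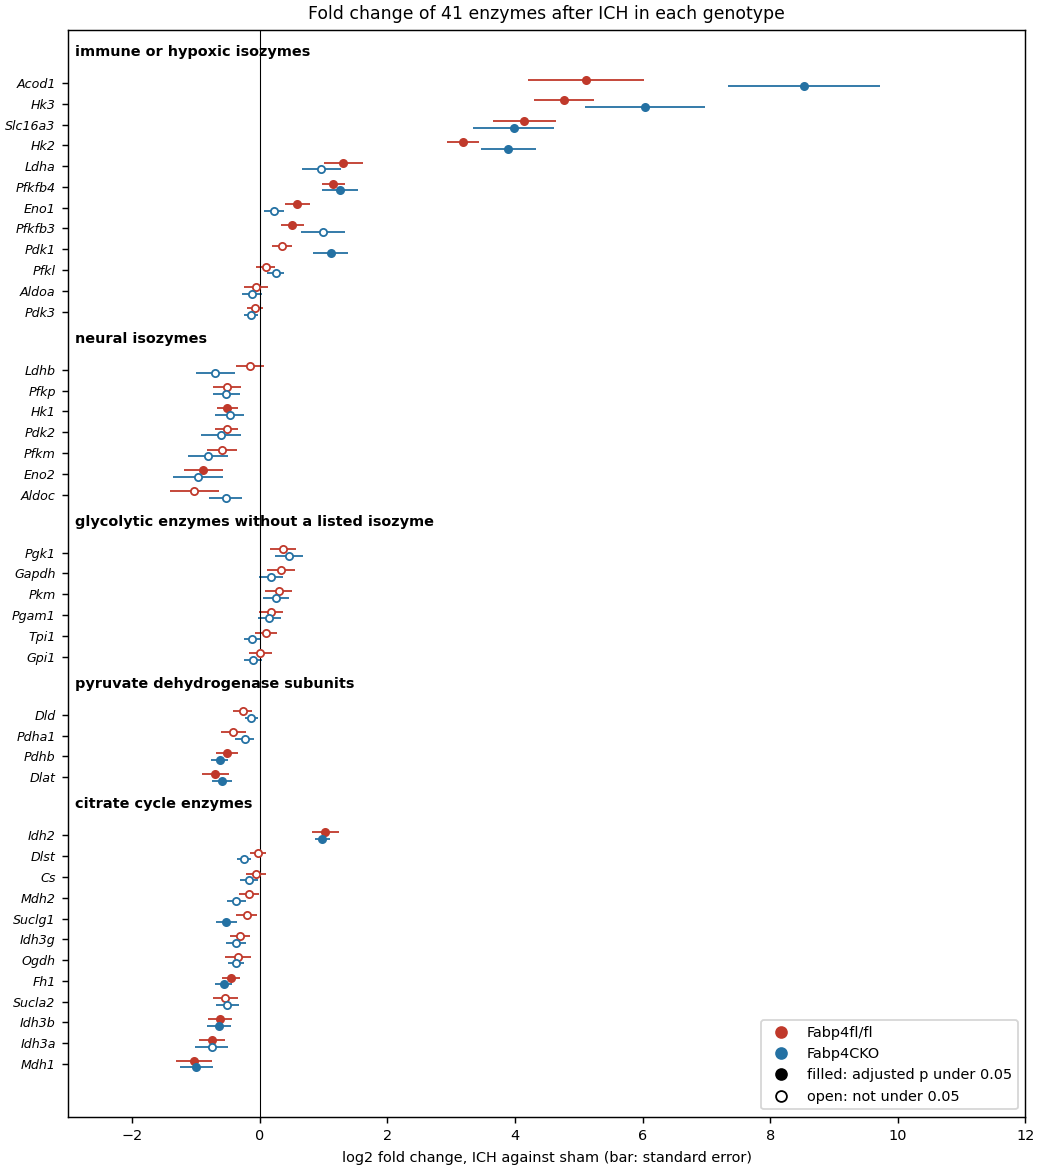
Log2 fold change after ICH (horizontal axis, with standard error bars) of the 41 enzymes, grouped by role, in Fabp4fl/fl (red) and Fabp4CKO mice (blue), 3 mice against 3 in each; filled points have an adjusted p under 0.05. Acod1, Hk3, Slc16a3 and Hk2 lie far to the right of the others, and all 7 neural isozymes, all 4 pyruvate dehydrogenase subunits and 11 of the 12 citrate cycle enzymes lie left of 0 in both genotypes.

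Hexokinases trap glucose in the cell as glucose 6-phosphate. Hk2, the inducible hexokinase of muscle and of activated cells, was at 5.40, 4.82 and 4.13 CPM in Sham-Fabp4fl/fl and at 3.70, 4.61 and 3.86 CPM in Sham-Fabp4CKO. After ICH it was at 60.5, 42.8 and 31.6 CPM in Fabp4fl/fl and at 68.5, 28.9 and 84.1 CPM in Fabp4CKO. Every ICH library lay several-fold above every sham library, and the lowest was ICH-Fabp4CKO mouse 2. The log2 fold change was 3.18 (SE 0.26, adjusted p = 3.50e-04) in Fabp4fl/fl and 3.90 (SE 0.43, adjusted p = 0.00549) in Fabp4CKO.

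Hk3, the hexokinase of leukocytes, was at 2.07, 1.15 and 1.86 CPM in Sham-Fabp4fl/fl and at 79.4, 40.0 and 25.3 CPM in ICH-Fabp4fl/fl. In Fabp4CKO mice it was at 1.48, 1.3 and 1.38 CPM in sham and at 94.7, 14.9 and 164 CPM after ICH. The groups did not overlap, and ICH-Fabp4CKO mice ranged from the lowest to the highest level among all 6 ICH libraries. The log2 fold change was 4.77 (SE 0.47, adjusted p = 5.22e-04) in Fabp4fl/fl and 6.04 (SE 0.94, adjusted p = 0.00890) in Fabp4CKO.

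Slc16a3 encodes MCT4, which exports lactate from glycolytic cells. It was at 3.18, 2.79 and 3.2 CPM in Sham-Fabp4fl/fl and at 99.0, 44.8 and 25.7 CPM in ICH-Fabp4fl/fl. Its levels in Fabp4CKO mice were 2.96, 3.89 and 3.91 CPM in sham and 71.2, 16.2 and 82.6 CPM after ICH. All 6 ICH libraries stood above all 6 sham libraries, with a log2 fold change of 4.15 (SE 0.49, adjusted p = 9.13e-04) in Fabp4fl/fl and 3.98 (SE 0.63, adjusted p = 0.00928) in Fabp4CKO.

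Acod1, the mitochondrial enzyme that makes itaconate, was close to absent in sham tissue, with 0, 0 and 8 counts in Sham-Fabp4fl/fl and 0, 3 and 0 counts in Sham-Fabp4CKO. After ICH it was at 4.78, 6.67 and 3.93 CPM in Fabp4fl/fl and at 39.5, 7.25 and 11 CPM in Fabp4CKO, where mouse 1 alone stood several-fold above the rest. The log2 fold change in Fabp4fl/fl was 5.11 (SE 0.91, adjusted p = 0.00443). In Fabp4CKO the sham libraries all lay at or under a floor of 3 counts per library, and the mean of 19.2 CPM after ICH was at least 140.5-fold higher than that floor (adjusted p = 0.00738). Its point for Fabp4CKO in the plot of fold changes depends on the prior count of the fit.

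Lactate dehydrogenase A favours the making of lactate. Ldha was at 198, 223 and 294 CPM in Sham-Fabp4fl/fl and at 907, 521 and 410.5 CPM after ICH, so that every ICH library exceeded every sham library and the log2 fold change was 1.31 (SE 0.31, adjusted p = 0.0135). In Fabp4CKO it was at 254, 295 and 252 CPM in sham and at 574, 304 and 680.0 CPM after ICH. Those groups did not overlap either, although ICH mouse 2 lay just above the highest sham mouse, and the log2 fold change of 0.96 did not pass (SE 0.31, adjusted p = 0.0509). Without that mouse the same fit of the Fabp4CKO mice called 13 of the 41 genes higher and 21 lower.

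Eno1, the enolase of most tissues, was at 782, 851 and 770.1 CPM in Sham-Fabp4fl/fl and at 1552, 1099 and 1082 CPM in ICH-Fabp4fl/fl, a log2 fold change of 0.59 (SE 0.20, adjusted p = 0.0473). In Fabp4CKO it was at 742, 795 and 752 CPM in sham and at 969, 793 and 899.5 CPM after ICH, where the groups overlapped and the log2 fold change was 0.22 (SE 0.15, adjusted p = 0.270). The Eno1 call in Fabp4fl/fl was close to the threshold and was lost under 9 of 13 alternative settings.

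Pfkfb3 and Pfkfb4 make and break fructose 2,6-bisphosphate, the activator of phosphofructokinase. Pfkfb4 was at 12.3, 9.80 and 11.2 CPM in Sham-Fabp4fl/fl and 29.2, 27.7 and 19.8 CPM in ICH-Fabp4fl/fl, beside 12.1, 11.8 and 13.1 and 37.6, 17.8 and 33.2 CPM in Fabp4CKO, and its log2 fold change was 1.16 (SE 0.19, adjusted p = 0.00294) there and 1.26 (SE 0.28, adjusted p = 0.0222) in Fabp4CKO. Pfkfb3 was at 51.0, 59.1 and 75.4 CPM in Sham-Fabp4fl/fl and 99.0, 93.6 and 79.9 CPM in ICH-Fabp4fl/fl. Its log2 fold change of 0.51 (SE 0.18, adjusted p = 0.0488) rested on a narrow gap between the groups, and the call was lost under 10 of 13 alternative settings. In Fabp4CKO Pfkfb3 was at 69.8, 79.6 and 65.3 CPM in sham and 148, 75.8 and 203 CPM after ICH, with 2 mice far above sham and mouse 2 within it (log2 fold change 0.99, SE 0.35, adjusted p = 0.0646).

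Pyruvate dehydrogenase kinases switch off the entry of pyruvate into the citrate cycle. Pdk1, the kinase known to respond to hypoxia, was at 33.4, 41.2 and 36.3 CPM in Sham-Fabp4fl/fl, 57.8, 44.0 and 43.8 CPM in ICH-Fabp4fl/fl, 32.2, 24.8 and 37.0 CPM in Sham-Fabp4CKO and 69.1, 46.4 and 87.0 CPM in ICH-Fabp4CKO. The ICH libraries lay above the sham libraries in each genotype, with a log2 fold change of 0.35 (SE 0.16, adjusted p = 0.102) in Fabp4fl/fl and 1.11 (SE 0.27, adjusted p = 0.0269) in Fabp4CKO. Pdk3 was at 39.4, 39.5 and 36.5 and 38.5, 35.5 and 38.6 CPM in Fabp4fl/fl and at 39.3, 37.6 and 34.0 and 32.6, 33.2 and 34.6 CPM in Fabp4CKO, and its log2 fold change was -0.072 (SE 0.12, adjusted p = 0.647) in Fabp4fl/fl and -0.14 (SE 0.11, adjusted p = 0.326) in Fabp4CKO. Aldoa was at 1389.9, 1437 and 1390.2 CPM in Sham-Fabp4fl/fl and 1545, 1199 and 1398 CPM after ICH (log2 fold change -0.065, SE 0.19, adjusted p = 0.792), and at 1345, 1515 and 1331 and 1328, 1290.2 and 1218 CPM in Fabp4CKO (log2 fold change -0.13, SE 0.16, adjusted p = 0.531). Pfkl, the liver form of phosphofructokinase, was at 122, 134 and 111 and 151, 122 and 130.3 CPM in Fabp4fl/fl (log2 fold change 0.10, SE 0.15, adjusted p = 0.620) and at 111, 126 and 107 and 144, 123 and 141 CPM in Fabp4CKO (log2 fold change 0.25, SE 0.13, adjusted p = 0.16). Sham and ICH libraries overlapped for Pfkl in both genotypes and for Aldoa in Fabp4fl/fl.

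**Figure D2:**
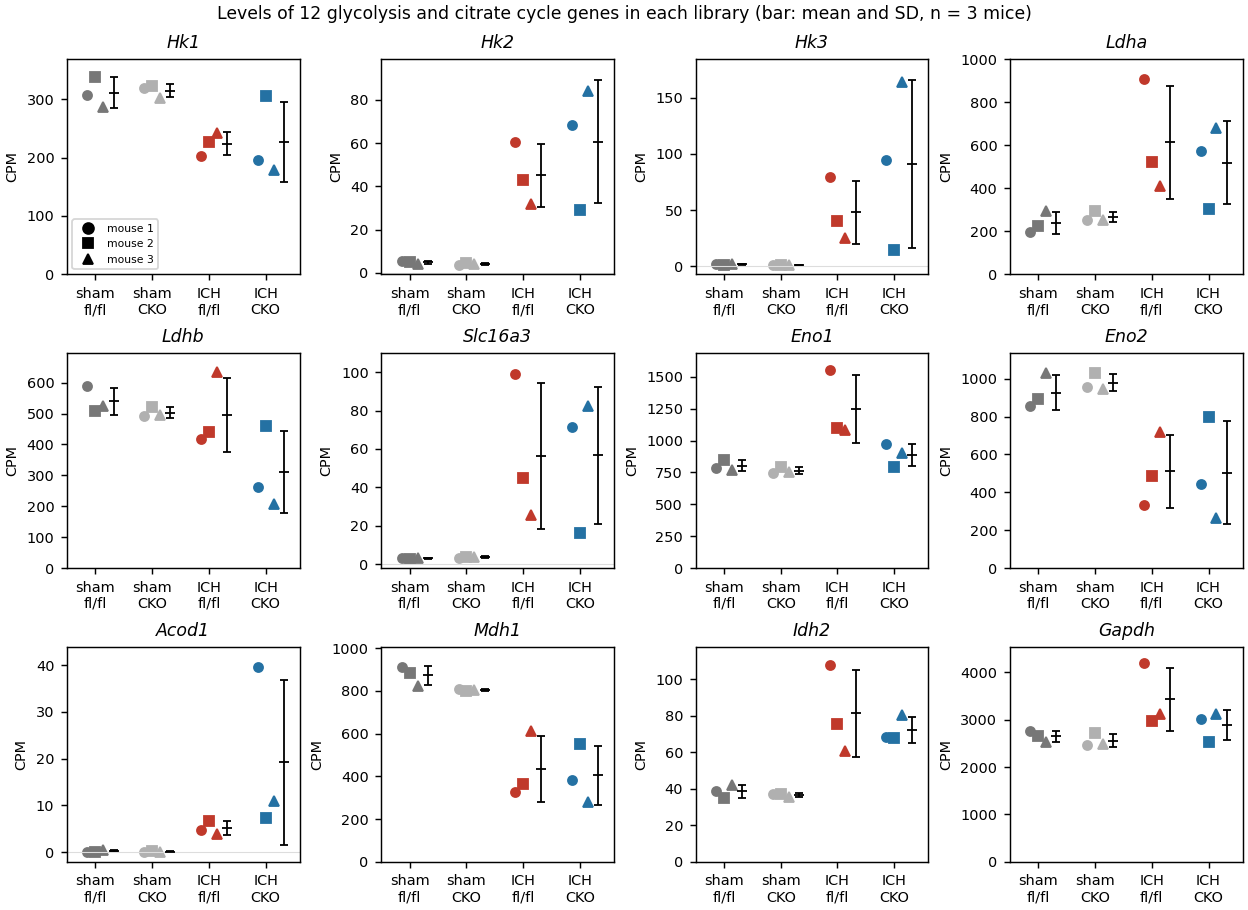
CPM of 12 of the enzymes (vertical axis, from 0) in each library, with mouse 1, 2 and 3 of a group as circle, square and triangle and the mean and SD (n = 3) beside them. Hk2, Hk3, Slc16a3 and Acod1 are near 0 in sham and spread widely after ICH, and ICH-Fabp4CKO mouse 2 (blue square) lies nearest to sham in most panels.

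Markers of infiltrating, microglial and dividing cells moved with these increases. All 10 monocyte and macrophage markers were called higher after ICH in each genotype, and their summed level was 43.0 to 94.3 CPM in Sham-Fabp4fl/fl, 40.7 to 50.7 in Sham-Fabp4CKO, 1143 to 2662 in ICH-Fabp4fl/fl and 1307 to 9970.1 in ICH-Fabp4CKO, with no marker at 0 in any group. Microglial markers rose as well, 7 of 8 in each genotype, from summed levels of 353 to 425 CPM in Sham-Fabp4fl/fl and 355 to 397 in Sham-Fabp4CKO to 1449 to 1697 and 1493 to 4355 after ICH. Neutrophil markers were called higher in 4 of the 5 tested in Fabp4fl/fl and in 5 of the 6 tested in Fabp4CKO, with summed levels under 3 CPM in every sham library and of 17.6 to 51.8 and 18.4 to 235 CPM after ICH; Ly6g was at 0 in ICH-Fabp4fl/fl and Elane in Sham-Fabp4CKO. Markers of dividing cells were called higher in 8 of 8 in each genotype, with sums of 7.39 to 12.8 CPM in Sham-Fabp4fl/fl, 10.3 to 12.5 in Sham-Fabp4CKO, 215 to 452 in ICH-Fabp4fl/fl and 46.5 to 354 in ICH-Fabp4CKO. In each ICH group the mouse with the highest monocyte and macrophage sum was the one with the highest Hk2, Hk3 and Slc16a3, and the mouse with the lowest Hk2, Hk3 and Slc16a3 had the lowest sum. Acod1 and Pfkfb4 were lowest in the same mice. However, Acod1 was highest in ICH-Fabp4fl/fl mouse 2 and ICH-Fabp4CKO mouse 1, and Pfkfb4 was highest in mouse 1 of each group. Across both groups Slc16a3 was highest in ICH-Fabp4fl/fl mouse 1. The sum of that mouse, 2662 CPM, lay below those of ICH-Fabp4CKO mice 1 and 3 (6041 and 9970.1 CPM). The part of these cells in the enzyme levels was not tested.

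The promoters of 4 genes called higher (Hk2, Slc16a3, Ldha and Eno1) and 2 called lower (Hk1 and Eno2) in Fabp4fl/fl are shown with the core of the hypoxia response element, the sequence bound by hypoxia-inducible factors. RefSeq start sites on GRCm38.p6 matched 40 of the 41 genes (not Idh3a), with 59 windows in all because several genes have more than one start. Each window is the 250 bases before a start, written 5′ to 3′ on the strand of the gene, and the capitals mark ACGTG or GCGTG on either strand. ACGTG can overlap the E-box CACGTG, which contains it. Where a gene has several starts, the first listed window is printed. The windows are Hk2 at chr6:82774455-82774704 on the minus strand, Slc16a3 at chr11:120948817-120949066 on the plus strand, Ldha at chr7:46845554-46845803 on the plus strand, Eno1 at chr4:150236458-150236707 on the plus strand, Hk1 at chr10:62379909-62380158 on the minus strand and Eno2 at chr6:124769674-124769923 on the minus strand.
Hk2: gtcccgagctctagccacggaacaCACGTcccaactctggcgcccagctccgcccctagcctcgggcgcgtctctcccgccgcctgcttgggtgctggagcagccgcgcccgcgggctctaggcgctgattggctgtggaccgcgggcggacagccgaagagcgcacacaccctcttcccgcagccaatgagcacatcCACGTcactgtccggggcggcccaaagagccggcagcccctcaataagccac
Slc16a3: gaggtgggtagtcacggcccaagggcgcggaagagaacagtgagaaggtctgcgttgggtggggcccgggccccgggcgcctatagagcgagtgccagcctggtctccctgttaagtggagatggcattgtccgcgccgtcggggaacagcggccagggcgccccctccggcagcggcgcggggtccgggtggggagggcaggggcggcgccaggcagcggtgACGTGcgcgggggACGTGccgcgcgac
Ldha: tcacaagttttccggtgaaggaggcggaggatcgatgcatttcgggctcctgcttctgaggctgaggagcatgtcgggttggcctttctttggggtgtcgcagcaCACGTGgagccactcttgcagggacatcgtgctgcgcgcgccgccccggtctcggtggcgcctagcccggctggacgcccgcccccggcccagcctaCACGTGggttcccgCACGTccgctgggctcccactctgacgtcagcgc
Eno1: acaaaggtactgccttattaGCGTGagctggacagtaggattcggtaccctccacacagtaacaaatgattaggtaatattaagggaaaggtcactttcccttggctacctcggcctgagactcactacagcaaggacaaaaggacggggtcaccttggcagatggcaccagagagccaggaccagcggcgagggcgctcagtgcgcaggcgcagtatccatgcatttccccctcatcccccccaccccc
Hk1: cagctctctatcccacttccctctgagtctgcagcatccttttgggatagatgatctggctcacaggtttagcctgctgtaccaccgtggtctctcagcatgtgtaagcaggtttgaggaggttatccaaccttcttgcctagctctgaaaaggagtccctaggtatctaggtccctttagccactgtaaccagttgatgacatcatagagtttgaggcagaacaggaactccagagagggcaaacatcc
Eno2: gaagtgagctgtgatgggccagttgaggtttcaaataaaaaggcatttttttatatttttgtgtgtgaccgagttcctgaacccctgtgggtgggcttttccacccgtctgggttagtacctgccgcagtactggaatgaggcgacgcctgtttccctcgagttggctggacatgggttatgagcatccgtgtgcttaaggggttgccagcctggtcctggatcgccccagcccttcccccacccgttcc
The Ldha window held 5 matches, of which 2 pairs were single E-boxes read on both strands, the Hk2 and Slc16a3 windows 2 each and the Eno1 window 1, while these letters did not occur in the first listed windows of Hk1 and Eno2. A second Hk1 window held 3. Of the other members called lower in Fabp4fl/fl, Mdh1, Fh1 and Pdhb had matches, Dlat and Idh3b had none, and Idh3a had no window. In all, 17 of the 19 windows of immune or hypoxic genes, 9 of the 13 of neural isozymes, 12 of the 16 of citrate cycle enzymes, 4 of the 7 of the other glycolytic enzymes and 2 of the 4 of pyruvate dehydrogenase subunits held at least 1 match, beside 38.6% of all 32851 RefSeq windows, of which 16.6% held ACGTG, 28.2% GCGTG and 6.02% CACGTG. Windows of a gene can overlap, and 6 of the citrate cycle windows, all with a match, were starts of Ogdh. By gene, at least 1 window with a match was found for 12 of 12 immune or hypoxic genes, 6 of 7 neural isozymes, 7 of 11 citrate cycle enzymes, 4 of 6 other glycolytic enzymes and 2 of 4 pyruvate dehydrogenase subunits, beside 41.5% of all 27025 genes with a window. Every match holds a CG step, and these windows averaged 15.6 CG steps for the immune or hypoxic genes, 8.77 for the neural isozymes, 17.6 for the citrate cycle enzymes and 9.86 over all windows. The matches describe the letters in these windows and not binding.

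None of the neural isozymes was called higher after ICH. All 7 had log2 fold changes below 0 in both genotypes, with a median of -0.52 in Fabp4fl/fl and -0.60 in Fabp4CKO, but only Hk1 and Eno2 were called, both in Fabp4fl/fl. In Fabp4CKO none was called by edgeR, where 3 of the 7 had an unadjusted p under 0.05.

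Hk1, the main hexokinase of brain, was at 308, 339 and 286 CPM in Sham-Fabp4fl/fl and 203, 227 and 242 CPM in ICH-Fabp4fl/fl. The groups did not overlap, and the log2 fold change was -0.51 (SE 0.16, adjusted p = 0.0378). In Fabp4CKO Hk1 was at 319.7, 323 and 302 CPM in sham and 197, 305 and 178 CPM after ICH, where mouse 2 stayed within the sham range (log2 fold change -0.47, SE 0.23, adjusted p = 0.132).

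Eno2, the neuronal enolase, was at 858, 892 and 1030.0 CPM in Sham-Fabp4fl/fl and 334, 485 and 717 CPM after ICH, a log2 fold change of -0.89 (SE 0.30, adjusted p = 0.0474). In Fabp4CKO it was at 958, 1033 and 948 CPM in sham and 444, 800.4 and 265 CPM after ICH, which did not pass (log2 fold change -0.96, SE 0.39, adjusted p = 0.0929). Every ICH library was below every sham library of its genotype, with ICH-Fabp4fl/fl mouse 1 and ICH-Fabp4CKO mouse 3 lowest. In Fabp4fl/fl the Eno2 call was lost under 6 of 13 alternative settings and the Hk1 call under 5 of 13.

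Aldoc, the aldolase of astrocytes and some neurons, was at 909.9, 804 and 679 CPM in Sham-Fabp4fl/fl and 284, 257 and 656 CPM in ICH-Fabp4fl/fl (log2 fold change -1.02, SE 0.39, adjusted p = 0.0650). Fabp4CKO mice had 760.0, 813 and 905 CPM in sham and 453, 794 and 461 CPM after ICH (log2 fold change -0.54, SE 0.26, adjusted p = 0.138). Mouse 3 of ICH-Fabp4fl/fl and mouse 2 of ICH-Fabp4CKO stood well above the other mice of their groups.

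Ldhb, which favours the use of lactate, was at 590.0, 507 and 524 CPM in Sham-Fabp4fl/fl and 417, 439.5 and 635 CPM after ICH, and at 492, 523 and 495 and 264, 459.8 and 209 CPM in the Fabp4CKO groups. The log2 fold change was -0.15 (SE 0.22, adjusted p = 0.599) in Fabp4fl/fl and -0.69 (SE 0.30, adjusted p = 0.106) in Fabp4CKO. The groups overlapped only in Fabp4fl/fl, where mouse 3 after ICH had the highest level of all 12 libraries.

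Phosphofructokinase commits sugar to glycolysis. Pfkm, its muscle and brain form, was at 391, 394 and 353 CPM in Sham-Fabp4fl/fl and 195, 244 and 332 CPM after ICH, and at 354, 357 and 372 and 195, 301 and 124 CPM in Fabp4CKO. Pfkp, named for platelets and also abundant in brain, was at 205, 211 and 258 and 136, 146 and 202 CPM in Fabp4fl/fl and at 239, 254 and 238 and 164, 216 and 127 CPM in Fabp4CKO. For both genes the ICH libraries lay below the sham libraries without overlap in each genotype and the adjusted p-values lay between 0.0714 and 0.0873. Pdk2, the most abundant of the 3 kinases per length, was at 112, 106 and 92.6 and 58.5, 84.1 and 80.0 CPM in Fabp4fl/fl (log2 fold change -0.52, SE 0.18, adjusted p = 0.0526) and at 96.7, 109 and 103 and 54.7, 103 and 45.1 CPM in Fabp4CKO (log2 fold change -0.60, SE 0.31, adjusted p = 0.155).

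Markers of neurons in general were lower too. Of 12, 8 were called lower after ICH in Fabp4fl/fl and 2 in Fabp4CKO, and none was at 0 in any group. In Fabp4fl/fl all 12 had log2 fold changes below 0. In Fabp4CKO 11 of these markers did, and 1 lay above 0 at 1.45 and was not called. Their summed level was 6941 to 8496 CPM in Sham-Fabp4fl/fl, 7391 to 7473 in Sham-Fabp4CKO, 2177, 3671 and 4959.6 in the ICH-Fabp4fl/fl mice and 3199, 6747 and 2283 in the ICH-Fabp4CKO mice. ICH-Fabp4fl/fl mouse 3 and ICH-Fabp4CKO mouse 2 had the highest neuron sums of their groups, and also the highest levels of Hk1, Eno2, Pfkm and Pfkp. Of the 8 striatal projection neuron markers, none was called after ICH in Fabp4fl/fl by edgeR, where none had an unadjusted p under 0.05 and the sums of 1214, 1675 and 3783 CPM overlapped those of sham. In Fabp4CKO 2 of these 8 were called lower, with sums of 1472, 2801 and 1178 CPM after ICH. Astrocyte markers, 3 of 8 called higher in each genotype and none lower, summed to 2968 to 3329 CPM in Sham-Fabp4fl/fl, 3178 to 3236 in Sham-Fabp4CKO, 6149 to 7767 in ICH-Fabp4fl/fl and 5571 to 7741 in ICH-Fabp4CKO. The part of these cell types in the enzyme levels was not tested.

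**Figure D3:**
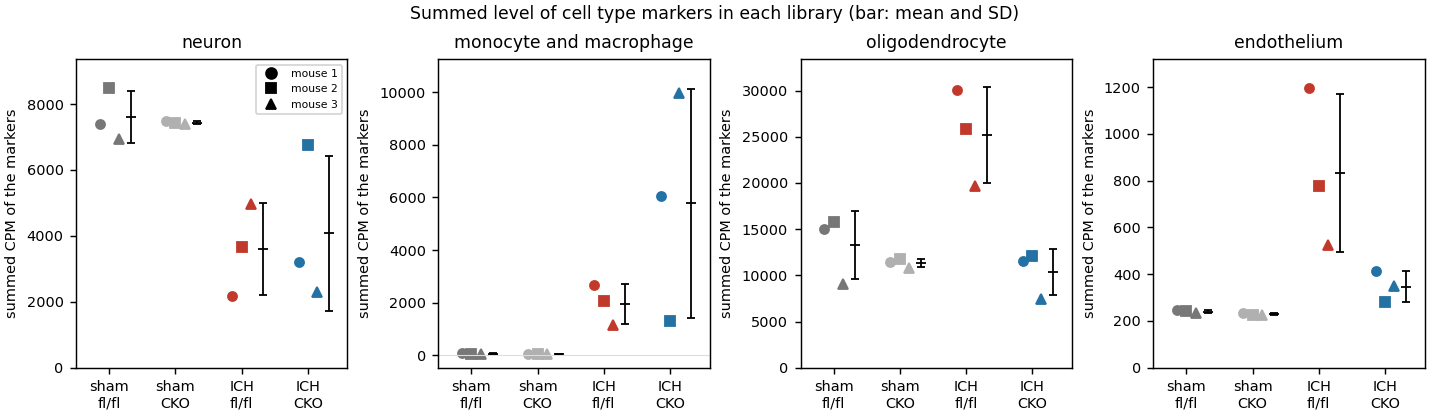
Summed CPM of 4 fixed marker lists (12 neuron, 10 monocyte and macrophage, 8 oligodendrocyte and 8 endothelium genes; vertical axis from 0) in each library, with the mean and SD (n = 3). Neuron sums are lower and monocyte and macrophage sums higher in every ICH library than in the sham libraries of its genotype, with ICH-Fabp4CKO mouse 2 nearest to sham in its group, and oligodendrocyte and endothelium sums separate the ICH groups of the genotypes.

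Within a library, the ratio of the 2 genes of an isozyme pair does not depend on the scaling between libraries. It was computed for 9 pairs as the log2 ratio of CPM and compared with exact two-sided permutation tests, 36 in all, in which 3 mice against 3 can give no p below 0.1, so that no pair could pass 0.05 and the smallest Benjamini-Hochberg value was 0.225. In Fabp4fl/fl the ratio was higher in every ICH library than in every sham library for 8 of the 9 pairs, and in Fabp4CKO for 7 of the 9. The 9 pairs share genes and libraries, and for single genes 61.8% and 62.1% of all genes tested had groups that did not overlap.

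The log2 ratio of Hk2 to Hk1 was -5.84, -6.14 and -6.11 in Sham-Fabp4fl/fl and -1.74, -2.41 and -2.94 in ICH-Fabp4fl/fl, a difference of 3.67 (exact permutation p = 0.10). In Fabp4CKO it was -6.43, -6.13 and -6.29 in sham and -1.52, -3.40 and -1.08 after ICH, a difference of 4.28 (exact permutation p = 0.10). The ICH and sham values stood far apart in both genotypes.

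The log2 ratio of Ldha to Ldhb was -1.58, -1.18 and -0.83 in Sham-Fabp4fl/fl and 1.12, 0.24 and -0.63 in ICH-Fabp4fl/fl, and -0.96, -0.83 and -0.98 and 1.12, -0.60 and 1.70 in the Fabp4CKO groups. Its shift was 1.44 in Fabp4fl/fl and 1.66 in Fabp4CKO, and in each genotype 1 of the 3 ICH mice lay just above the sham range. The log2 ratio of Eno1 to Eno2 was -0.13, -0.068 and -0.42 and 2.22, 1.18 and 0.59 in Fabp4fl/fl, a shift of 1.54, and -0.37, -0.38 and -0.34 and 1.13, -0.013 and 1.77 in Fabp4CKO, a shift of 1.32.

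Of the other pairs, Hk3 to Hk1 shifted by 5.19 in Fabp4fl/fl and 5.99 in Fabp4CKO, Pfkl to Pfkm by 0.73 and 1.14, and Pdk1 to Pdk2 by 0.88 and 1.78, without overlap in either genotype. Aldoa to Aldoc shifted by 1.09 in Fabp4fl/fl, and in Fabp4CKO by 0.46 with overlapping groups. Pdk3 to Pdk2 behaved likewise, with 0.46 and, overlapping, 0.56. Pfkp to Pfkm, 2 genes of the neural group, shifted by 0.10 in Fabp4fl/fl with overlap and by 0.34 in Fabp4CKO without it.

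**Figure D4:**
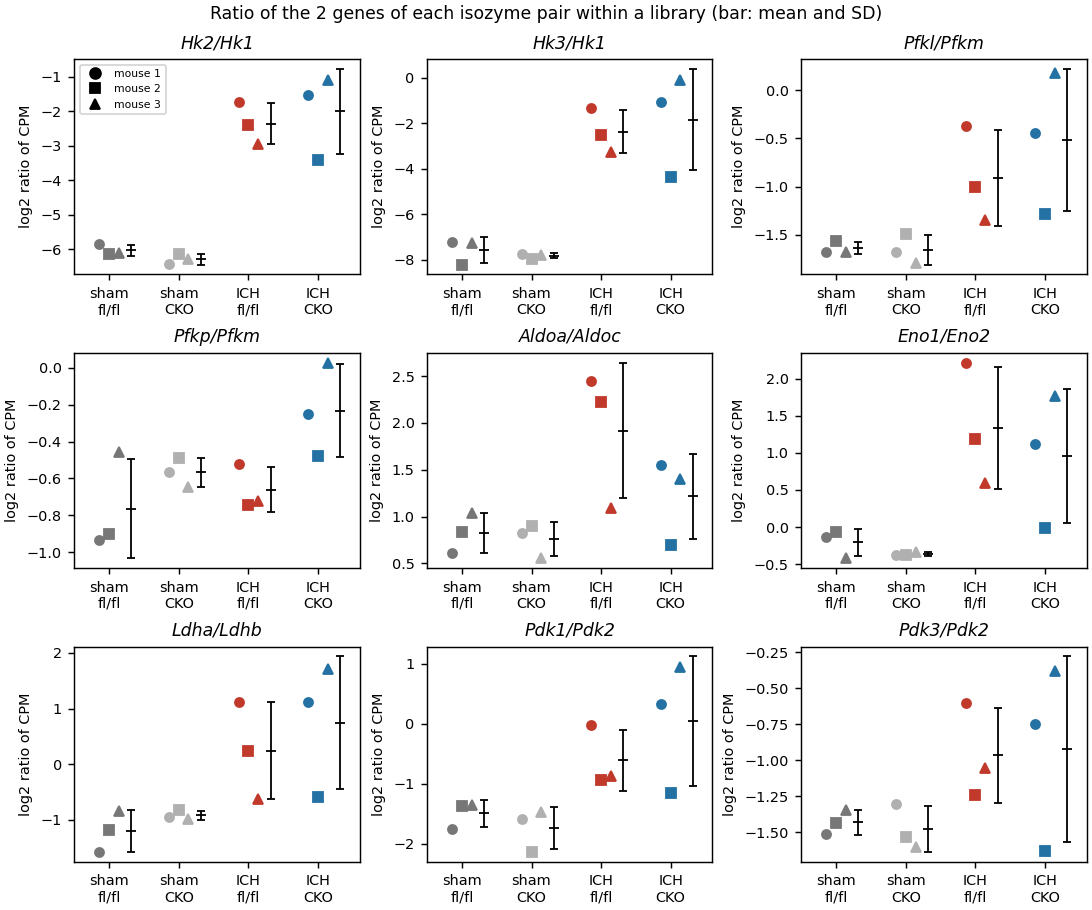
Log2 ratio of CPM between the genes of 9 isozyme pairs (vertical axis, a different range in each panel) in each library, with the mean and SD (n = 3). Sham libraries cluster at the bottom of the panels of Hk2 to Hk1 and Hk3 to Hk1, and the ICH libraries spread upward, with mouse 3 of ICH-Fabp4fl/fl and mouse 2 of ICH-Fabp4CKO the lowest of their groups in both.

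Per length of merged exons, the shift changed the make-up of several steps. Merged exons can be longer than the main transcript, and the size of each share depends on them. Ldha has 3.31 kb of merged exons and Ldhb 1.57 kb. Without lengths, their mean levels in ICH-Fabp4fl/fl were 613 and 497 CPM. Hk1 supplied 96.1%, 97.3% and 96.6% of the hexokinase CPM per kilobase in the Sham-Fabp4fl/fl mice and 42.8%, 59.6% and 70.0% in the ICH-Fabp4fl/fl mice. In the Fabp4CKO groups it supplied 97.3%, 97.1% and 97.2% and 38.3%, 80.1% and 26.3%. Hk3 was the largest hexokinase share in 2 of the ICH-Fabp4CKO mice and in none of the sham mice. Ldha supplied 17.3% ± 3.66 (SD, n = 3) of the lactate dehydrogenase CPM per kilobase in Sham-Fabp4fl/fl, 20.1% ± 0.921 in Sham-Fabp4CKO, 36.8% ± 13.7 in ICH-Fabp4fl/fl and 45.1% ± 19.1 in ICH-Fabp4CKO. Eno1 supplied 43.1% ± 3.16, 40.5% ± 0.376, 67.9% ± 11.7 and 62.3% ± 14.5 of the enolase in the same order of groups, passing Eno2 in the mean of each ICH group. Aldoa was the larger aldolase share already in sham, with 66.5% ± 3.27, 65.5% ± 2.85, 80.1% ± 8.39 and 72.0% ± 6.51 in that order.

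**Figure D5:**
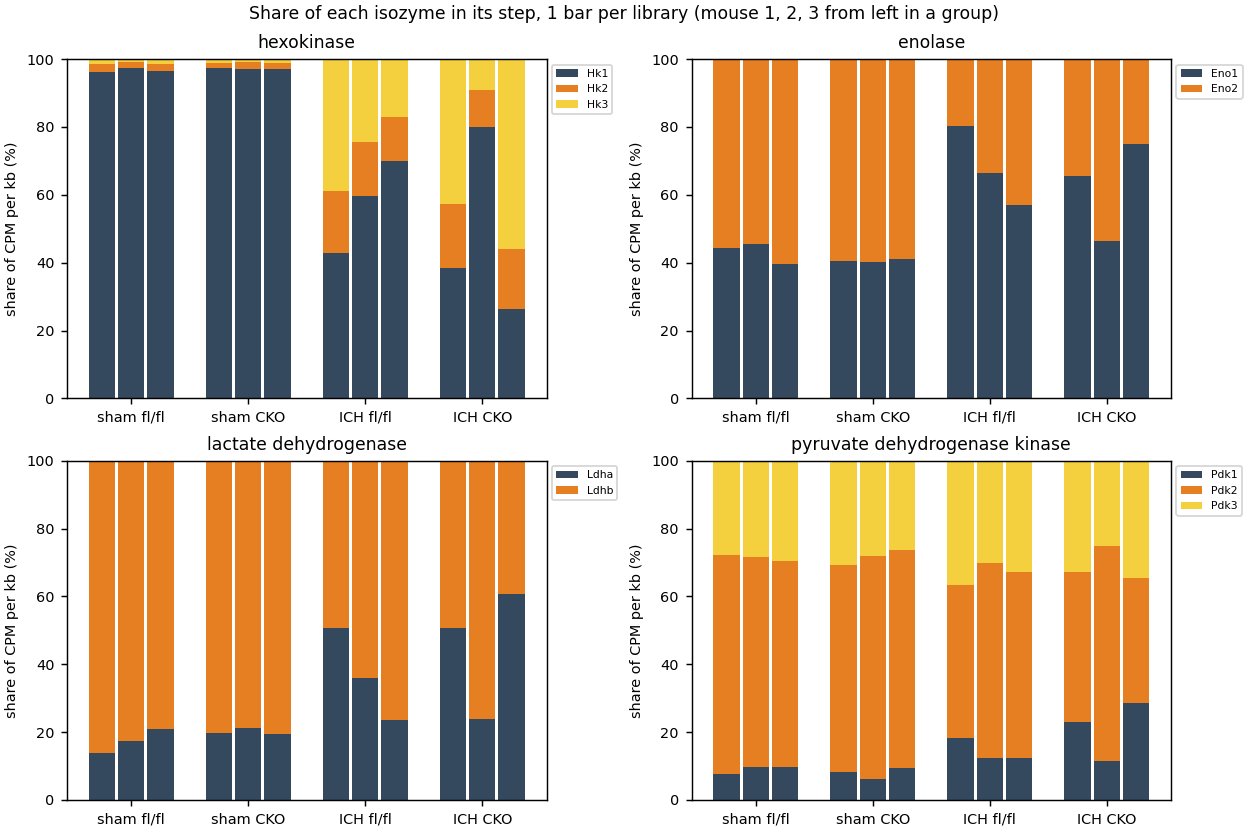
Share of the summed CPM per kilobase of a step (vertical axis, 0 to 100%) taken by each isozyme, with 1 bar per library and 3 per group, for hexokinase, enolase, lactate dehydrogenase and pyruvate dehydrogenase kinase. Hk1 takes over 96% of hexokinase in every sham library and 26.3% to 80.1% after ICH.

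The 6 glycolytic enzymes with no alternative in the set did not pass the test in either genotype. Their median log2 fold change was 0.24 in Fabp4fl/fl and 0.16 in Fabp4CKO, and edgeR gave none an unadjusted p under 0.05 in either, with 95% intervals that still allowed changes of up to 0.85 (Gapdh in Fabp4fl/fl) and 0.99 (Pgk1 in Fabp4CKO). Gapdh, the dehydrogenase often used as a reference gene, was at 2768, 2655 and 2524 CPM in Sham-Fabp4fl/fl, 4200.4, 2967 and 3129 CPM in ICH-Fabp4fl/fl, 2467, 2719 and 2496 CPM in Sham-Fabp4CKO and 3021, 2532 and 3124 CPM in ICH-Fabp4CKO. Its ICH values lay above sham without overlap in Fabp4fl/fl only (log2 fold change 0.33, SE 0.22, adjusted p = 0.250). Pgk1, which makes the first ATP of the pathway, was at 447, 465 and 379 CPM in Sham-Fabp4fl/fl and 718, 504 and 495 CPM after ICH (log2 fold change 0.37, SE 0.20, adjusted p = 0.167), and at 382, 353 and 364 and 597, 361 and 556 CPM in Fabp4CKO (log2 fold change 0.46, SE 0.22, adjusted p = 0.127). Pkm, the pyruvate kinase gene whose M1 and M2 forms were counted together, was at 1378, 1397 and 1413 and 2198, 1538 and 1558 CPM in Fabp4fl/fl (log2 fold change 0.30, SE 0.21, adjusted p = 0.275) and at 1342, 1437 and 1347 and 1777, 1271 and 1880.0 CPM in Fabp4CKO (log2 fold change 0.26, SE 0.21, adjusted p = 0.331). For Pgk1 and Pkm too, ICH and sham libraries of Fabp4fl/fl did not overlap, with mouse 1 after ICH the highest. Gapdh was the most abundant of the 41 genes per length of merged exons in Sham-Fabp4fl/fl, at 641 ± 29.5 CPM per kilobase (SD, n = 3). Aldoa followed at 483 ± 9.31, Ldhb at 344 ± 28.0 and Mdh1 at 340.1 ± 17.7. The last pair did not differ beyond its spread.

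The pyruvate dehydrogenase complex turns pyruvate into acetyl-CoA. Dlat and Pdhb, its E2 and E1 beta subunits, fell in both genotypes. Dlat was at 113, 134 and 94.6 CPM in Sham-Fabp4fl/fl and 59.2, 70.6 and 86.0 CPM after ICH (log2 fold change -0.70, SE 0.21, adjusted p = 0.0296), and at 109, 99.6 and 106 and 63.6, 84.3 and 59.7 CPM in Fabp4CKO (log2 fold change -0.60, SE 0.16, adjusted p = 0.0341). Pdhb was at 152, 136 and 123 and 90.6, 89.8 and 114 CPM in Fabp4fl/fl (log2 fold change -0.51, SE 0.17, adjusted p = 0.0441) and at 133, 128 and 134 and 79.3, 99.5 and 76.0 CPM in Fabp4CKO (log2 fold change -0.63, SE 0.14, adjusted p = 0.0211). Sham and ICH libraries did not overlap for either gene. Dlat lost its call under 4 of 13 alternative settings in Fabp4fl/fl and 6 of 13 in Fabp4CKO, and Pdhb under 5 of 13 in each. Pdha1, the regulated E1 alpha subunit, was at 242, 269 and 213 and 157, 183 and 217 CPM in Fabp4fl/fl and at 225, 205 and 224 and 170.4, 217 and 169 CPM in Fabp4CKO, overlapping in both. It had log2 fold changes of -0.41 (SE 0.19, adjusted p = 0.112) in Fabp4fl/fl and -0.23 (SE 0.15, adjusted p = 0.238) in Fabp4CKO, and Dld, the E3 subunit shared with the 2-oxoglutarate dehydrogenase complex, had -0.27 and -0.13, neither called.

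Among the 12 citrate cycle enzymes, Idh2 rose and the other 11 had log2 fold changes below 0 in both genotypes. In each genotype 4 were called lower and 1 higher (33.3% and 8.33%). Of all genes, 19.3% were called lower and 26.2% higher in Fabp4fl/fl, and 11.1% and 24.5% in Fabp4CKO. The median log2 fold change of the 12 enzymes was -0.33 in Fabp4fl/fl and -0.44 in Fabp4CKO. Mdh1, the cytosolic malate dehydrogenase of the malate-aspartate shuttle, was at 912, 884 and 823 CPM in Sham-Fabp4fl/fl and 325, 366 and 613 CPM after ICH (log2 fold change -1.04, SE 0.28, adjusted p = 0.0214), and at 809, 802 and 804 and 384, 550.0 and 279 CPM in Fabp4CKO (log2 fold change -0.99, SE 0.26, adjusted p = 0.0330). Mdh1 was 1 of the 4 called lower in each genotype, although it acts outside the mitochondrial cycle. It had the largest decrease among the called members. The mitochondrial Mdh2 had log2 fold changes of -0.17 (SE 0.15, adjusted p = 0.383) in Fabp4fl/fl and -0.37 (SE 0.15, adjusted p = 0.0999) in Fabp4CKO.

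Idh2, the NADP-linked isocitrate dehydrogenase of mitochondria, was at 38.8, 34.9 and 41.9 CPM in Sham-Fabp4fl/fl and 108, 75.4 and 60.8 CPM after ICH (log2 fold change 1.03, SE 0.21, adjusted p = 0.00731). In Fabp4CKO it was at 37.1, 37.3 and 35.6 and 68.3, 67.7 and 80.4 CPM (log2 fold change 0.98, SE 0.12, adjusted p = 0.00589). Every ICH library exceeded every sham library, and the ICH-Fabp4CKO mice lay close together here. The NAD-linked enzyme of the cycle had log2 fold changes below 0 in all of its subunits. Its catalytic subunit Idh3a was at 228, 249.9 and 206 CPM in Sham-Fabp4fl/fl and 111, 139 and 166 CPM after ICH (log2 fold change -0.75, SE 0.20, adjusted p = 0.0201), and at 208, 201 and 215 and 107, 173 and 89.8 CPM in Fabp4CKO, where it did not pass (log2 fold change -0.75, SE 0.25, adjusted p = 0.0593). Its subunit Idh3b fell in both, by 0.63 and 0.64 on the log2 scale (adjusted p = 0.0295 and 0.0444), and Idh3g had log2 fold changes of -0.31 (SE 0.16, adjusted p = 0.135) and -0.37 (SE 0.15, adjusted p = 0.0900). Groups did not overlap for Idh3a and Idh3b in either genotype, while Idh3g overlapped in Fabp4fl/fl. Under 13 alternative settings Mdh1 lost its call in 3 in Fabp4fl/fl and 4 in Fabp4CKO, Idh3b in 4 and 7, and Idh3a in 2 in Fabp4fl/fl.

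Fumarase (Fh1) fell by 0.45 in Fabp4fl/fl and by 0.56 in Fabp4CKO on the log2 scale (adjusted p = 0.0335 and 0.0254), a call lost under 5 of 13 alternative settings in each. Suclg1, the alpha subunit of succinyl-CoA ligase, was called only in Fabp4CKO, with a log2 fold change of -0.53 (SE 0.16, adjusted p = 0.0490) against -0.20 (SE 0.17, adjusted p = 0.341) in Fabp4fl/fl, and the difference between them did not pass the interaction test (adjusted p = 0.630). The Suclg1 call was lost under 7 of 13 alternative settings. Its ATP-forming partner Sucla2 had -0.54 (SE 0.20, adjusted p = 0.0586) and -0.51 (SE 0.18, adjusted p = 0.0673). Citrate synthase (Cs), the entry enzyme of the cycle, was at 333, 329 and 296 CPM in Sham-Fabp4fl/fl and 298, 297 and 347 CPM after ICH, overlapping, with a log2 fold change of -0.060 and a 95% interval of -0.44 to 0.32. Ogdh and Dlst, which carry out the 2-oxoglutarate step, had log2 fold changes of -0.34 and -0.029 in Fabp4fl/fl and of -0.37 and -0.25 in Fabp4CKO, none called.

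The comparison of genotypes asked whether loss of Fabp4 from microglia altered these enzymes. No member was called between ICH-Fabp4CKO and ICH-Fabp4fl/fl by edgeR or DESeq2, and no gene of the whole table was called by edgeR (0% of 14600, 1777, or 12.2%, at an unadjusted p under 0.05; DESeq2 called 578). A single member, Acod1, had an unadjusted p under 0.05. Its 3 ICH-Fabp4CKO values lay above the 3 ICH-Fabp4fl/fl values, with a log2 difference of 1.96 (SE 0.66, adjusted p = 0.351) and a 95% interval of 0.38 to 3.55. Groups did not overlap for 5 of the 41, Acod1 above and Eno1, Tpi1, Dlst and Pdk3 below, against 8.3% of all genes above, 11.5% below and 19.8% either way. The median log2 difference over the members was -0.064, beside 0.062 over all genes.

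The spread among ICH mice left wide intervals for the leading genes. Between the genotypes after ICH the log2 difference was 0.49 for Hk2 (95% interval -0.51 to 1.5), 0.99 for Hk3 (-0.96 to 2.94), 0.080 for Slc16a3 (-1.56 to 1.72) and -0.17 for Ldha (-1.14 to 0.80), so that each interval holds both no difference and a difference of more than 2-fold. Eno1 was at 1552, 1099 and 1082 CPM in ICH-Fabp4fl/fl and 969, 793 and 899.5 CPM in ICH-Fabp4CKO, with no overlap and a log2 difference of -0.43 (SE 0.23, adjusted p = 0.497). The log2 differences of the 12 citrate cycle enzymes ran from -0.37 (Suclg1, 95% interval -0.90 to 0.16) to 0.13 (Ogdh, -0.39 to 0.65). Of these, 11 of 12 lay below 0 and none had an unadjusted p under 0.05. Those intervals belong to the extreme differences and not to the most variable enzymes. Mdh1 spread widely, at 325, 366 and 613 CPM in ICH-Fabp4fl/fl and 384, 550.0 and 279 CPM in ICH-Fabp4CKO.

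In sham tissue no member was called between genotypes by edgeR or DESeq2 and none had an unadjusted p under 0.05 in edgeR, where 16 genes (0.111%) were called in all, each lower, and 10.2% had an unadjusted p under 0.05. Groups did not overlap for 1 member, Mdh1, which lay lower in Sham-Fabp4CKO, against 5.98% of all genes higher, 8.86% lower and 14.8% either way. The member differences were small, from -0.28 (Hk3) to 0.24 (Slc16a3) on the log2 scale. Without Sham-Fabp4fl/fl mouse 3, which had the highest striatal neuron sum of its group, the same test called 2 members higher, 2 lower and 2862 genes in all. The interaction of ICH and genotype, which tests whether the response to ICH differed, was called for no member by edgeR or DESeq2 and for 3 genes (0.0199%) in all by edgeR, 0.0133% higher and 0.00663% lower, with 9.94% at an unadjusted p under 0.05. Pdk1 was the only member with an unadjusted p under 0.05, with a difference between the responses of 0.71 (SE 0.32, adjusted p = 0.501). For Ldha, Eno1 and Pfkfb3, called in one genotype only, it was -0.40, -0.42 and 0.43 with adjusted p-values from 0.598 to 0.821. Acod1 had the largest such difference among the members, but its size rested on sham counts at or close to 0. The comparisons of ICH with sham share no mice between genotypes, but the interaction and the genotype comparison after ICH use the same ICH libraries.

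The summed markers of 2 other cell types did not overlap between the ICH groups of the genotypes. The summed level of 8 oligodendrocyte markers was 19689.8 to 30014 CPM in ICH-Fabp4fl/fl and 7484 to 12058 in ICH-Fabp4CKO, with all 8 below at an unadjusted p under 0.05 and none called. Endothelial markers summed to 526 to 1197 and 279 to 412 CPM, with 7 of 8 below at an unadjusted p under 0.05 and none called. Sham sums were 9072 to 15819.9 and 10839 to 11716 CPM for oligodendrocytes and 233 to 247 and 226 to 234 CPM for endothelium, and no marker of either list was at 0 in any group. The part of these cells in the enzyme differences was not tested.

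Individual mice differed in the strength of the whole pattern. ICH-Fabp4CKO mouse 2, singled out after its values were seen, lay nearer to the sham mean of its genotype than both other mice of its group for 36 of the 41 genes, including all 7 neural isozymes, all 4 pyruvate dehydrogenase subunits and 11 of the 12 citrate cycle enzymes. It also had the highest neuron sum and the lowest monocyte and macrophage sum of its group. Leaving this mouse out of the Fabp4CKO comparison with sham raised the calls from 7 higher and 6 lower to 13 and 21, and the calls over all genes from 5248 to 10099. Among Fabp4fl/fl mice, leaving out ICH mouse 3 gave 9 higher and 15 lower.

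Genes around the core enzymes, from a list of transport and side-branch genes, moved in both directions. Of 22 listed, 16 were tested in Fabp4fl/fl, with 3 called higher and 5 lower. These are 18.75% and 31.25%, beside 26.2% and 19.3% of all genes. In Fabp4CKO 15 were tested, with 2 higher and 1 lower. These are 13.3% and 6.67%, beside 24.5% and 11.1% of all genes. Slc2a1, the glucose transporter of endothelium and glia, was at 162, 149 and 109 CPM in Sham-Fabp4fl/fl, 748, 419 and 275 CPM in ICH-Fabp4fl/fl, 108, 120.4 and 114 CPM in Sham-Fabp4CKO and 221, 173 and 191 CPM in ICH-Fabp4CKO. It rose in both genotypes, by 1.73 and 0.78 on the log2 scale (adjusted p = 0.00799 and 0.0122), and the ICH-Fabp4CKO values lay below the ICH-Fabp4fl/fl values without overlap (log2 difference -1.23, SE 0.36, adjusted p = 0.339). The monocarboxylate transporter Slc16a1 rose as well, by 1.84 and 1.24 (adjusted p = 0.00117 and 0.00822). Slc2a3, the neuronal glucose transporter, was at 118, 135 and 164 and 47.2, 61.4 and 93.5 CPM in the Fabp4fl/fl groups and fell there (log2 fold change -1.07, SE 0.28, adjusted p = 0.0192), and was at 143, 146 and 131 and 65.3, 121 and 47.7 CPM in Fabp4CKO (log2 fold change -0.84, SE 0.34, adjusted p = 0.0877).

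Of 25 further genes of pyruvate and citrate metabolism, 24 were tested in each genotype, with 7 called higher and 4 lower in Fabp4fl/fl and 6 higher and 3 lower in Fabp4CKO, shares near those of all genes. Pdk4, the kinase of fasting, rose by 0.81 and 0.77 on the log2 scale (adjusted p = 0.00976 and 0.0490), the dicarboxylate carrier Slc25a10 by 1.19 and 1.36 (adjusted p = 8.60e-04 and 0.0102) and Suclg2, the GTP-forming partner of Suclg1, by 0.64 and 0.94 (adjusted p = 0.00755 and 0.00965). The pyruvate dehydrogenase phosphatase Pdp1, which reverses the kinases, had log2 fold changes of -1.55 (SE 0.38, adjusted p = 0.0144) and -1.25 (SE 0.26, adjusted p = 0.0177), and Pdhx, the binding protein of the complex, of -0.59 (SE 0.16, adjusted p = 0.0219) and -0.57 (SE 0.17, adjusted p = 0.0472), both lower in both genotypes. The citrate carrier Slc25a1 was called in Fabp4fl/fl only, at 40.5, 41.9 and 45.0 and 97.6, 76.4 and 79.1 CPM (log2 fold change 0.95, SE 0.14, adjusted p = 0.00208) against 53.6, 49.4 and 49.9 and 57.1, 42.6 and 52.5 CPM in Fabp4CKO (log2 fold change -0.0048, SE 0.14, adjusted p = 0.980). The interaction test for it gave -1.0 with an adjusted p of 0.14.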

How the data were processed

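RNA-seq was measured in 12 libraries, 1 mouse each, of poly(A)-selected RNA from perihematomal brain tissue. The authors deposited estimated counts per gene, not normalized, of which 7.36% to 8.69% of values in a library were not whole. Per the labels, their processing named Bowtie2 2.2.8, HISAT2, StringTie 1.3.1 and DESeq2, without roles. The genome build and counting tool are not given in the sources used here, and no strand setting is stated. Counts were rounded, and genes kept by filterByExpr (minimum count 10, total 15) were TMM-scaled and tested with the quasi-likelihood F-test of edgeR 4.0.16 (R 4.3.3) on the 2 groups compared, or on all 12 libraries for the interaction. Fold changes come from these fits and CPM from TMM over all 12 libraries. P-values were Benjamini-Hochberg adjusted over all genes. Standard errors were derived from the fold change and F statistic, and 95% intervals from them. A count of 3 per library was the floor, which covers counting error only. The 95% intervals include the spread between mice as estimated by the fit. Lengths were merged exons of GENCODE vM21.

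Groups came from the sample titles. No pair of libraries agreed within sampling noise. Single values were compared with exact two-sided permutation tests in Python 3.11.15 with scipy 1.17.1. The tests were checked on simulated data. Alternatives were other normalizations, DESeq2 1.42.0, other filters, all libraries in one fit, a replicate block, a fold change of at least 1.5, 0.5 CPM added to ratios, and each library left out in turn. The members, gene lists and marker lists were chosen with earlier results of these data known. Values in every library are given for Acod1, for both genes of each isozyme pair and for up to 3 members of each other role group with the smallest p in ICH-Fabp4fl/fl against sham, and of other lists for up to 5 genes per direction; further genes were named after their values were seen. The result for 1 gene of another list is not reported here.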

Additional observations from a re-analysis of the deposited data

How the results depend on the processing

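Among the counts of called members, the decreases moved most with the settings. In Fabp4fl/fl, decreases among the members numbered 13 with DESeq2 and 5 with a fold change of at least 1.5 beside the adjusted p, against 8. Leaving out a library gave 0 to 15: 1 without Sham-Fabp4fl/fl mouse 1, 0 without Sham mouse 2 or ICH mouse 2, 2 without ICH mouse 1 and 15 without ICH mouse 3. Increases stayed between 6 and 9 there, and calls over all genes between 4181 (without ICH mouse 2; 4340 without Sham mouse 2) and 8165. In Fabp4CKO, decreases numbered 16 with DESeq2 and 10 with all 12 libraries in one fit, against 6. Leaving out a library gave 2 to 13 increases, 0 to 21 decreases and 629 to 10099 calls over all genes. The upper ends came without ICH-Fabp4CKO mouse 2. Without Sham-Fabp4CKO mouse 1, 2 or 3 there were 3, 2 and 2 increases, no decrease, and 845, 842 and 629 calls over all genes. Without ICH-Fabp4CKO mouse 1 there were 0 decreases and 1583 calls, and without mouse 3, 3 decreases and 3041 calls. Between genotypes after ICH no member was called under any setting, and calls over all genes were 0 except 578 with DESeq2, 362 with all 12 libraries in one fit and 0 to 2 with a library left out. In sham, calls over all genes were 16, but 150 with DESeq2, 2 with at least 10 counts in every library and 0 to 2862 with a library left out (0 without Sham-Fabp4fl/fl mouse 2 or any Sham-Fabp4CKO mouse). Members called there ranged from 0 to 2 in each direction, with 2 only without Sham-Fabp4fl/fl mouse 3. For the interaction, calls over all genes were 3, but 266 with DESeq2 and 0 to 371 with a library left out, 371 without ICH-Fabp4CKO mouse 2, 24 without ICH-Fabp4fl/fl mouse 1, 11 without ICH-Fabp4fl/fl mouse 3 and 0 without Sham-Fabp4fl/fl mouse 2, ICH-Fabp4fl/fl mouse 2, any Sham-Fabp4CKO mouse or ICH-Fabp4CKO mouse 1 or 3. The cause of these changes was not tested.

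Of the called members, none reversed. In Fabp4fl/fl, Hk2, Hk3, Slc16a3, Pfkfb4, Acod1 and Idh2 were called under every setting in which they were tested, and in Fabp4CKO Hk2 and Idh2, where Acod1 lost its call in 2 of 12, Hk3 and Slc16a3 in 3 of 13 and Pfkfb4 and Pdk1 in 5 of 13. Over the 30 calls of a member, 281 alternative fits kept the call and 107 lost it. The isozyme ratios moved by less than 1 pooled SD with 0.5 CPM added. The same held with any library left out, but that outcome was fixed in advance. Leaving out 1 of 3 mice cannot move a group difference by 1 pooled SD.

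The main fits had no replicate block, since nothing links mice of one number and same-numbered libraries did not deviate together throughout. The correlations of their deviations were 0.25, 0.059 and 0.18 in the Fabp4fl/fl comparison, -0.0056, 0.028 and 0.019 in Fabp4CKO, 0.43, -0.19 and -0.66 between genotypes after ICH and 0.079, -0.27 and -0.15 in sham. With the replicate block, decreases in Fabp4CKO numbered 1 in place of 6 and interaction calls over all genes 1 in place of 3, while the other counts of calls stayed within 1.5 times.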

Other observations

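The pentose phosphate pathway, which diverts glucose 6-phosphate to NADPH and ribose, was measured by 8 genes. After ICH 5 were called higher in Fabp4fl/fl and 6 in Fabp4CKO, beside 26.2% and 24.5% of all genes, and none was called lower. All 8 had sham and ICH libraries that did not overlap in either genotype, all higher after ICH, beside 34.4% and 33.2% of all genes. The median log2 fold change was 1.00 in Fabp4fl/fl and 0.81 in Fabp4CKO. Pgd, its second NADPH-forming enzyme, was at 37.9, 37.9 and 33.9 CPM in Sham-Fabp4fl/fl, 208, 150.2 and 90.3 CPM in ICH-Fabp4fl/fl, 37.1, 37.4 and 35.9 CPM in Sham-Fabp4CKO and 158, 65.3 and 195 CPM in ICH-Fabp4CKO (adjusted p = 0.00170 and 0.0166). H6pd rose by 2.00 and 2.62 on the log2 scale, Pgls by 1.39 and 1.11, Taldo1 by 1.09 and 0.67 and G6pdx, the entry enzyme, by 0.91 and 0.77. No gene of this pathway was called between genotypes after ICH by edgeR, where none of the 8 had an unadjusted p under 0.05.

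Of 20 hypoxia regulators and targets outside glycolysis, 6 were called higher in Fabp4fl/fl and 7 in Fabp4CKO, beside 26.2% and 24.5% of all genes, and none was called lower. Hmox1, the heme-degrading enzyme, was at 10.8, 6.41 and 8.16 CPM in Sham-Fabp4fl/fl, 3949, 1281 and 652 CPM in ICH-Fabp4fl/fl, 4.81, 4.52 and 4.55 CPM in Sham-Fabp4CKO and 645, 158 and 710.2 CPM in ICH-Fabp4CKO. Adm, Egln3 and Hif1a rose by 3.15, 2.66 and 0.78 on the log2 scale in Fabp4fl/fl and by 3.22, 3.18 and 1.45 in Fabp4CKO. Vegfa, a standard target of hypoxia-inducible factors, had -0.050 (adjusted p = 0.837) and -0.11 (adjusted p = 0.621) and Bnip3 0.10 (adjusted p = 0.750) and 0.14 (adjusted p = 0.549), with overlapping groups.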
